A study of Mus musculus with 32 samples.

Results

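Liver transcripts of old mice given metformin were set against those of mice given glipizide. The comparison takes the 4 arrays labelled MET and the 4 labelled GLIP, 8 of the 32 arrays of the series, and all probe sets of the array other than its control probe sets. All mice were males of the B6C3F1 hybrid strain, bought at 1 month of age, housed singly from 5 months on 93 kcal per week of a defined diet (AIN-93M), and drawn at random for treatment at 20 months. For 8 weeks the MET and GLIP mice ate that diet with the drug mixed in and pressed into pellets. The doses are not given in the sources used here. The mice went without food for the last 48 hours and were 22 months old when killed, and total liver RNA went on an Affymetrix MG-U74Av2 array, 1 array per mouse. The 4 control mice (CON), on the diet without drug, and the 4 mice on both drugs (GM) are given beside the pair of groups for reference. The comparison separates drugs that both lower blood glucose but act on different organs, in a series built to set glucose-lowering treatments beside calorie restriction.

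Metformin is a biguanide. It reduces glucose output by the liver, inhibits complex I of the mitochondrial respiratory chain and activates the energy sensor AMPK, which phosphorylates and restrains enzymes of fatty acid and cholesterol synthesis. Glipizide is a sulfonylurea: it closes the ATP-sensitive potassium channel of the pancreatic beta cell and so releases insulin, which in the liver favours lipid synthesis through the transcription factor SREBP-1c. SREBP-1c and its relative SREBP-2 switch on the genes of fatty acid and of sterol synthesis, respectively, while the unfolded protein response, run by XBP1, ATF6 and ATF4, sets the level of the chaperones of the endoplasmic reticulum.

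The arrays were alike in overall signal. Column medians lay between 148 and 164 intensity units in MET and between 155 and 169 in GLIP (two-sided exact permutation p = 0.314, 4 against 4 arrays). Over the tested probe sets, correlations were 0.955 to 0.973 within MET, 0.960 to 0.973 within GLIP and 0.947 to 0.969 between them. The hepatocyte products Alb (albumin) and Apoa1 were at 26327 units or more in every MET and GLIP array, whereas Acta1 of striated muscle and Ins2 of islets were at 48.3 or less. Ckm of striated muscle was at 104 to 272 and Prss2 of the exocrine pancreas at 12.1 to 108. Array GLIP 3 stood apart by its macrophage markers: the summed intensity of 13 of them was 20129, against at most 8789 in the other GLIP arrays and 6848 to 9577 in MET. For 11 of the 13 markers, GLIP 3 was the highest of the 12 MET, GLIP and CON arrays. GLIP 3 also had the lowest summed hepatocyte markers of the MET and GLIP arrays (287716) and the highest sums of the GLIP group for markers of stellate cells (16300 against at most 13132), endothelial cells (4856 against 4111) and cholangiocytes (6676 against 5771). In a piece of whole liver, a change in the number of cells of a type and a change in RNA per cell cannot be told apart. Array MET 3 had a beta-actin control intensity of 3971 against 11250 to 14190 in the other MET arrays. The 3' to 5' signal ratio of the pyruvate carboxylase control, a gauge of RNA integrity and labelling, was 1.58 to 1.82 in MET and 2.24 to 3.04 in GLIP (exact p = 0.0286, adjusted p = 0.114 over 4 array measures), with CON between 1.63 and 3.42. The same ratios of beta-actin and Gapdh overlapped between the groups, and the part of these array differences in the results was not tested.

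Of 7357 tested probe sets, 281 (3.82%) differed between MET and GLIP at a Benjamini-Hochberg adjusted p under 0.05 in limma, 117 higher and 164 lower with metformin. Differences are given as MET minus GLIP on the scale log2(intensity + 27), with the standard error of the fit. Called differences were mostly modest: their median size was 0.50, and 25 exceeded 1. At the level of genes, each represented by its brightest probe set, 84 of 5545 (1.51%) were higher and 128 (2.31%) lower in MET. The groups' intensities did not overlap in 59 of the 84 and in 111 of the 128, where 9.37% of all tested probe sets did not. Calls and overlap come from the same arrays, so the lack of overlap adds no independent evidence for the calls. An unadjusted p under 0.05 was reached by 1403 probe sets (19.1%). Against CON, on the other hand, 307 probe sets (4.17%) passed in MET and 10 (0.136%) in GLIP. These comparisons share arrays with each other, so they are given only side by side.

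The number of calls rested on the common estimate of the spread and on single arrays. A fit to the MET and GLIP arrays alone, with fewer degrees of freedom, made 26 calls, and a fit to MET, GLIP, GM and CON made 104. Leaving out MET 2, MET 4, GLIP 3 or GLIP 4 left 169, 126, 115 or 89 calls. Without MET 3 and GLIP 3 together, 138 probe sets passed. Scaling the arrays to equal medians made 172 calls, and 69.8% of these were higher in MET, against 117 of 281 as deposited. Quantile normalization made 231 calls, 43.3% of them higher. The share of rises was 57.3% without GLIP 4 and 61.6% without MET 3 and GLIP 3 together, so the balance of rises and falls moved with the scaling to equal medians and with single arrays.

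**Figure D1:**
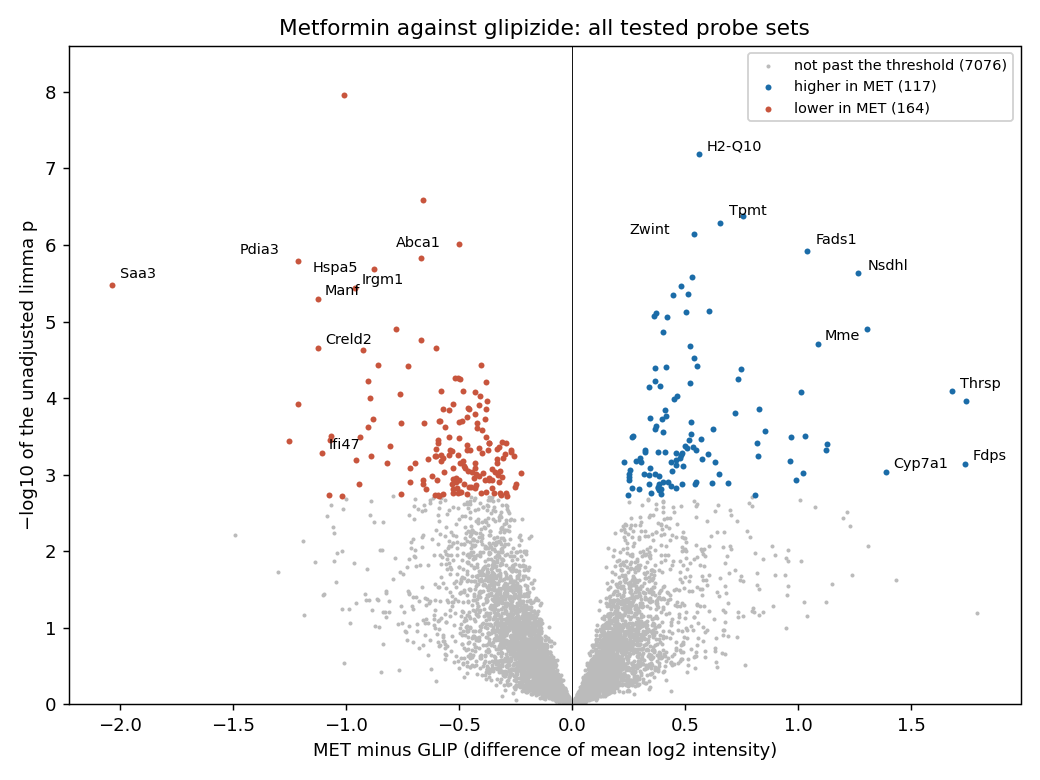
Difference between MET and GLIP (x axis, MET minus GLIP, log2 scale) against the unadjusted limma p (y axis, −log10) for the 7357 tested probe sets, with 117 higher in MET in blue, 164 lower in MET in red and the others in grey. Genes of fatty acid and sterol synthesis (Fads1, Nsdhl, Fdps, Thrsp) lie to the right and chaperones of the endoplasmic reticulum (Pdia3, Manf, Creld2, Hspa5) to the left.

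Among 29 lists of genes for liver functions, lipogenesis and cholesterol synthesis had the highest medians, and interferon-induced genes and chaperones of the endoplasmic reticulum the lowest. The median over the 18 tested lipogenic genes was 0.47 and that over the 18 genes of cholesterol synthesis and uptake 0.45, beside −0.03 over all 5545 genes. Interferon-induced genes had a median of −0.39 over 22 genes, and the chaperone list −0.25 over 28. The list with most calls was that of the chaperones, with 9.

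**Figure D2:**
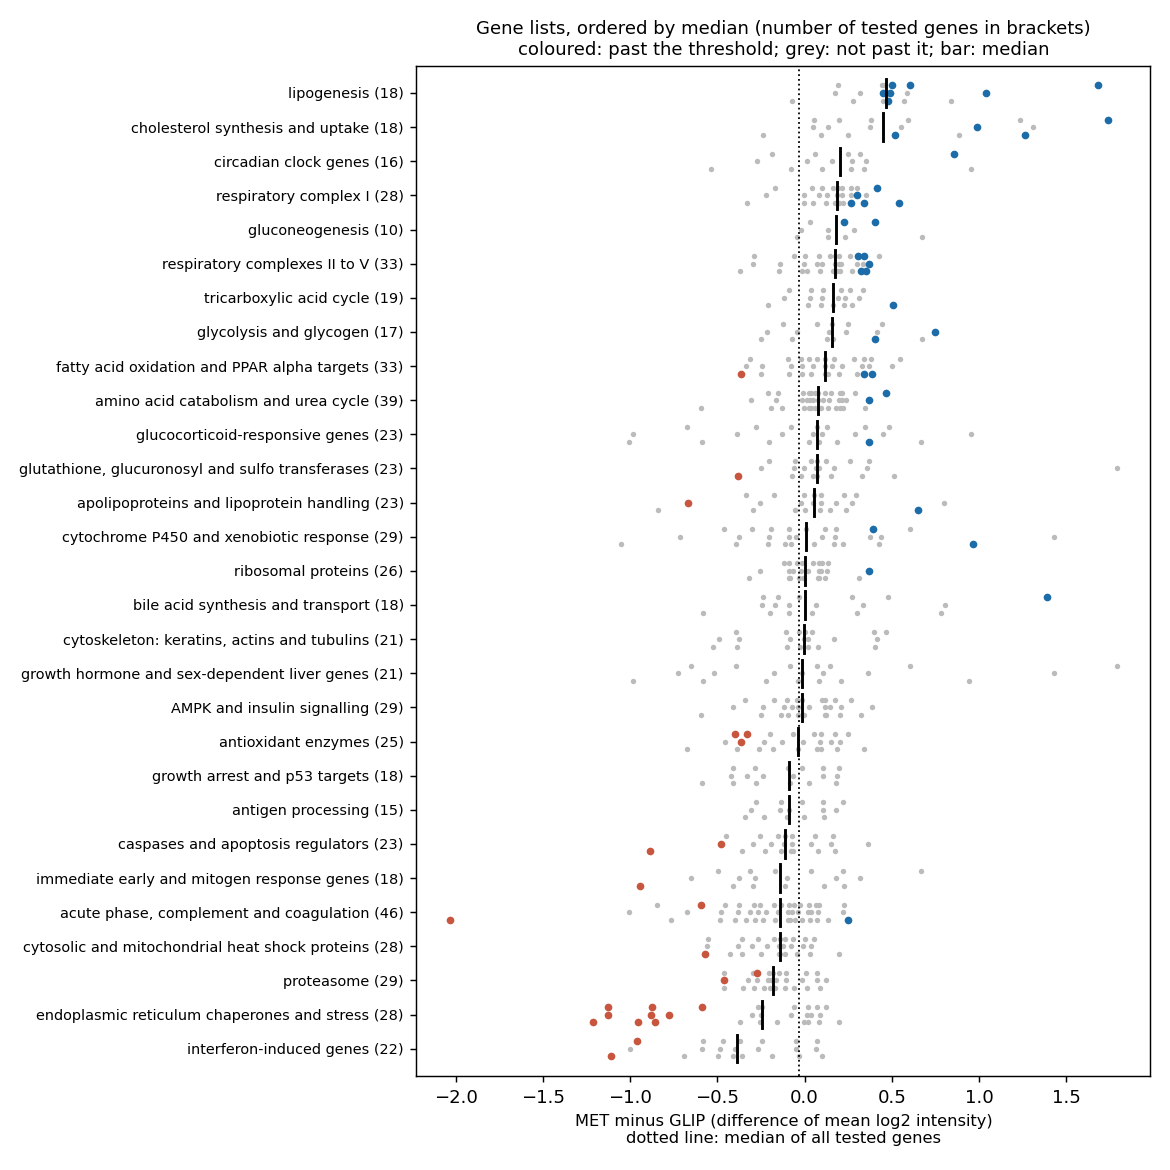
MET minus GLIP (x axis, log2 scale) for each tested gene of 29 lists (rows, number of tested genes in brackets), coloured where past the threshold, with a bar at each list's median. Medians run from −0.39 for interferon-induced genes to 0.47 for lipogenesis, and the dotted line marks the median of −0.03 over all genes.

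Lipogenic genes were higher in the metformin mice. Of 18 tested, 7 rose and none fell, where 1.51% of all genes rose. Of the 18 differences, 17 were above 0, where 44.4% of all genes were. The 7 were Fads1, Thrsp, Scd1, Srebf1, Elovl5, Slc25a1 and Gpam, of which Gpam was named after its value was seen. Fads1, the delta-5 desaturase of polyunsaturated fatty acids, measured 9760, 7055, 4500 and 8173 in MET 1 to 4 and 3388, 3774, 3458 and 3167 in GLIP 1 to 4. Every MET array lay above every GLIP array, and MET 3 was the lowest of its group. The difference was 1.04 ± 0.17 (SE, n = 4 per group, limma adjusted p = 0.0011), a ratio of 2.05. Thrsp (Spot 14), a lipogenic factor that responds to thyroid hormone and carbohydrate, measured 5094, 2574, 620 and 2168 in MET and 826, 566, 522 and 615 in GLIP. Here MET 3 fell within the GLIP range while the other MET arrays were far above it, and the difference of 1.68 ± 0.37 (adjusted p = 0.0109) became 2.25 without MET 3.

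Scd1, which makes monounsaturated fatty acids and is among the brightest transcripts of the liver, measured 25920, 27840, 22120 and 27240 in MET and 14770, 21160, 16540 and 15800 in GLIP. These ranges were separate, with a difference of 0.60 ± 0.15 (adjusted p = 0.0264), and another probe set of the gene gave 1.13 (adjusted p = 0.0243). Srebf1, which encodes SREBP-1c, was 3902 ± 757 in MET and 2744 ± 308 in GLIP (SD, n = 4). Its difference of 0.49 ± 0.13 had an adjusted p of 0.0306. Slc25a1, the carrier that exports citrate from mitochondria for fatty acid synthesis, differed by 0.45 ± 0.10 (adjusted p = 0.0123). Elovl5, an elongase of polyunsaturated fatty acids, and Gpam, the first enzyme of glycerolipid synthesis, were higher by 0.50 ± 0.13 and 0.48 ± 0.12, both with overlapping arrays.

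Fasn, the fatty acid synthase itself, was not past the threshold. It measured 2432, 1165, 905 and 988 in MET and 594, 736, 984 and 1113 in GLIP, so a single array, MET 1, stood above the rest (difference 0.59 ± 0.22, adjusted p = 0.125). Acly, ATP citrate lyase, was at 2472 ± 803 and 2104 ± 296 (0.19 ± 0.13, adjusted p = 0.431). Pklr, the liver pyruvate kinase, gave 0.44 ± 0.13 with an adjusted p of 0.0581, and its other tested probe set 0.82 with 0.0272. Against CON, metformin mice were higher by 0.97 for Fads1, 0.60 for Srebf1, 0.57 for Slc25a1 and 0.46 for Elovl5, all called. For the same genes glipizide mice differed from CON by −0.07, 0.11, 0.12 and −0.04, none of them called. Fasn and Pklr were also called in MET against CON (0.76 and 0.66, limma adjusted p = 0.0431 and 0.00654), and Acly was not (0.38, adjusted p = 0.0854). In GLIP against CON these genes were at 0.17, 0.22 and 0.19, without a call. For Scd1 and Thrsp, CON lay between the drug groups, with no call on either side. MET minus CON was 0.26 and 1.10 and GLIP minus CON −0.34 and −0.59. GM means were above CON for Fads1 (4101 beside 3614), Elovl5 (11080 beside 9590) and Slc25a1 (2685 beside 2263). They were below CON for Scd1 (18610 beside 21510), Srebf1 (2007 beside 2542), Thrsp (580.5 beside 973.3) and Gpam (1856 beside 2095). The summed intensity of the 18 lipogenic genes was 54864 to 84506 in MET and 44053 to 51316 in GLIP. It was 47897 to 53806 in CON and 39507 to 55750 in GM.

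Fads1, Thrsp and Slc25a1 kept their calls with each of the 8 arrays left out, and the other 4 did not (largest adjusted p: Srebf1 0.105 without GLIP 2, Gpam 0.103 and Elovl5 0.0846 without GLIP 3, Scd1 0.0813 without GLIP 4). The list's 7 calls became 4 under quantile normalization and 4 without MET 1 or MET 2. They became 3 without MET 4, GLIP 3 or GLIP 4 and 3 in the fit to 4 groups. In the limma fit to MET and GLIP alone 0 remained, with Fads1 at an adjusted p of 0.0617. There 11 genes had an unadjusted p under 0.05, and the share of all probe sets at that level in this fit was not computed.

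Sterol synthesis showed the same direction. Of 18 tested genes of cholesterol synthesis and uptake, 4 rose (Nsdhl, Fdps, Dhcr7 and Fdft1), none fell, and 17 had a difference above 0. Over all tested genes, 1.51% rose and 44.4% were above 0. Nsdhl, a dehydrogenase that removes methyl groups from lanosterol-derived sterols, measured 1557, 852, 738 and 987 in MET and 332, 383, 362 and 536 in GLIP. No array overlapped, and the difference of 1.27 ± 0.22 (adjusted p = 0.00144) stood beside 1.12 and 1.30 from the gene's other 2 probe sets. Fdps, farnesyl diphosphate synthase, had the largest rise among the called genes, with 8608, 2859, 1329 and 4320 in MET and 782, 850, 931 and 1716 in GLIP. The MET arrays spread widely and MET 3 fell below GLIP 4, so the groups overlapped. The difference was 1.74 ± 0.46 (adjusted p = 0.0296).

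The remaining steps gave smaller or less even values. Dhcr7, the last enzyme of the pathway to cholesterol, stood at 642, 293, 225 and 368 in MET and 97.5, 164, 217 and 208 in GLIP. The difference was 0.99 ± 0.28 (adjusted p = 0.0392). Fdft1, squalene synthase, was the most even of the 4, with 2260, 2074, 2096 and 2124 in MET and 1629, 1566, 1156 and 1651 in GLIP (0.52 ± 0.13, adjusted p = 0.0234). Erg28, a scaffold for sterol enzymes that was not in the list, rose by 0.55 ± 0.14 (adjusted p = 0.0260). Hmgcs1, HMG-CoA synthase, was at 1228 ± 380 and 787 ± 162 (0.59 ± 0.25, adjusted p = 0.184). Idi1 and Msmo1, picked after their values were seen, had larger differences than most called genes, 1.24 ± 0.51 and 1.31 ± 0.46, and missed the threshold at adjusted p of 0.173 and 0.110. In both, the MET values spread widely, from 584 to 2377 for Idi1 and from 498 to 1890 for Msmo1. In MET against CON, Fdps (2.17), Idi1 (1.74), Nsdhl (0.985) and Fdft1 (0.45) were called. Dhcr7, Erg28, Hmgcs1 and Msmo1 were not, and none of these genes was called in GLIP against CON. The summed intensity of the 18 listed sterol genes was 20024 to 34591 in MET and 16160 to 19988 in GLIP. It was 17011 to 19730 in CON and 15998 to 21459 in GM.

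With each array left out in turn, Nsdhl alone of the 4 kept its call throughout. The count of 4 fell to 2 without MET 1, GLIP 1 or GLIP 2 and to 1 without MET 4 or GLIP 3, and it was 1 in the fits to MET and GLIP alone and to 4 groups. MET 1 had the highest value of the 8 arrays for Fads1, Thrsp, Nsdhl, Fdps and Dhcr7, and MET 3 the lowest MET value.

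**Figure D3:**
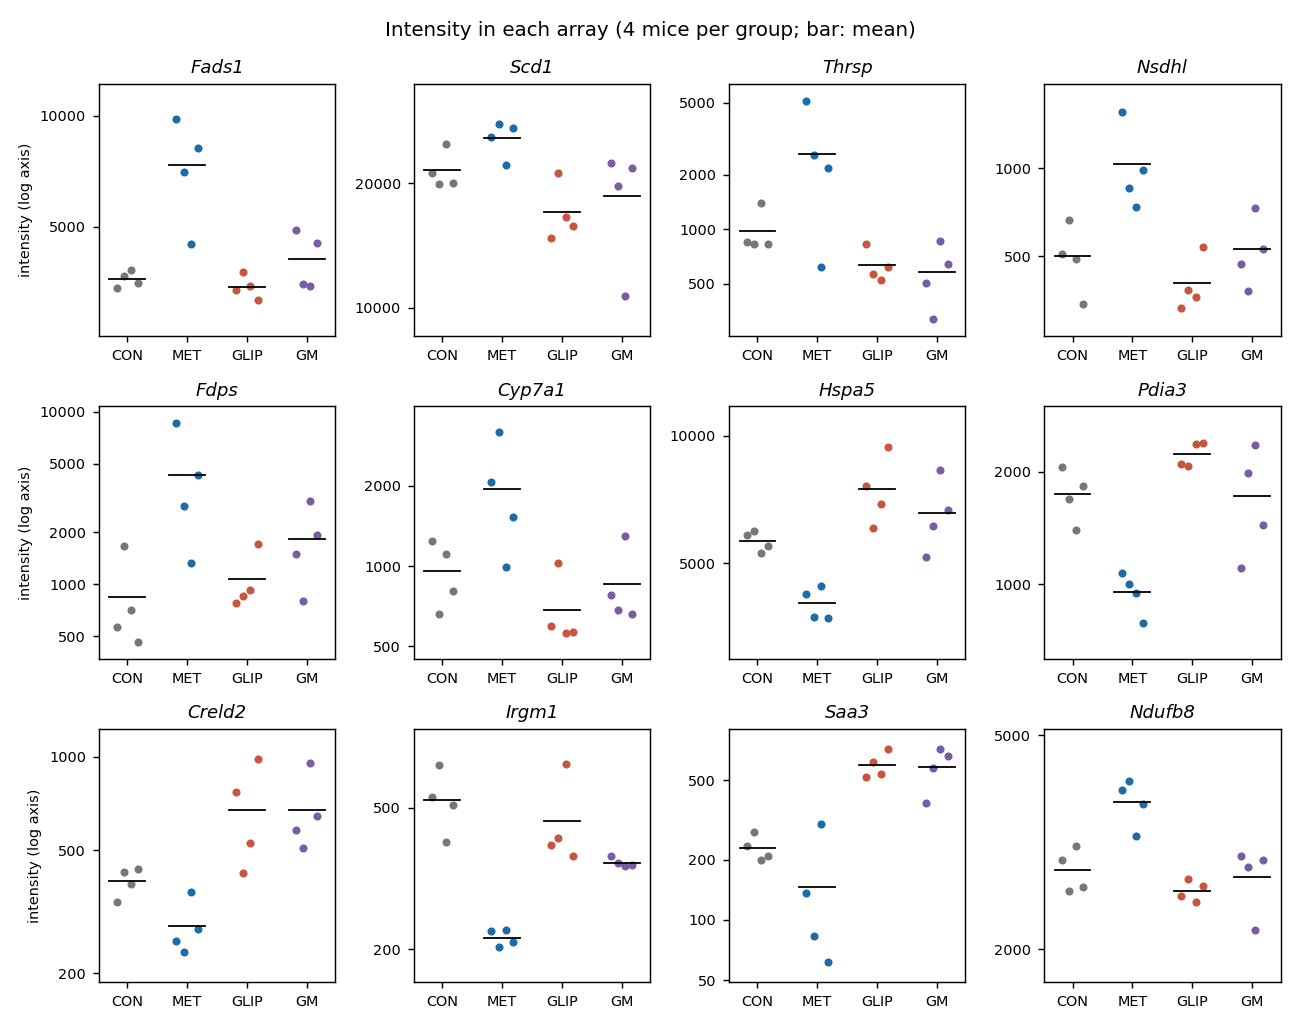
Intensity of 12 genes in each array (y axes, log scale; points are single mice, bars are means of 4) for CON, MET, GLIP and the combination GM. MET lies above GLIP without overlap for Fads1, Scd1, Nsdhl and Ndufb8 and below it without overlap for Hspa5, Pdia3, Creld2, Irgm1 and Saa3, while Thrsp, Fdps and Cyp7a1 overlap.

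Sterols leave the liver as bile acids, and the enzyme that controls this route was also higher with metformin. Cyp7a1, the cholesterol 7-alpha-hydroxylase that sets the rate of bile acid synthesis, measured 2069, 3179, 993 and 1530 in MET and 598, 1023, 559 and 563 in GLIP. GLIP 2 was just above MET 3, and the other 3 GLIP arrays were close together. The difference was 1.39 ± 0.38 (adjusted p = 0.0347), and it lost its call in 6 of 8 fits with an array left out. Cyp8b1, which directs synthesis towards cholic acid, was at 6084 ± 669 and 3550 ± 923 without overlap, yet its difference of 0.81 ± 0.30 missed the threshold (adjusted p = 0.123). Cyp7a1 was the only one of 18 genes of bile acid synthesis and transport that passed, beside 1.51% of all tested genes that rose. Of lipoprotein genes, Apoa4, an apolipoprotein of triglyceride-rich particles, rose by 0.65 ± 0.18 (adjusted p = 0.0355) with overlapping arrays. Its call held in 3 of the 8 fits with an array left out (adjusted p up to 0.133, without GLIP 4). Relative to CON, Apoa4 was at 0.17 in MET and −0.48 in GLIP, neither called. Abca1, which loads cholesterol onto high-density lipoprotein, fell by 0.67 ± 0.11, with 1270, 1086, 919 and 1098 in MET and 1637, 1575, 1846 and 1941 in GLIP (adjusted p = 0.00118). The call of Abca1 held under every alternative run, although its dimmer probe set gave 0.22 ± 0.16 (adjusted p = 0.467). Pltp, which transfers phospholipids between lipoproteins, was at the threshold with 0.80 ± 0.23 and an adjusted p of 0.0505.

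Some subunits of the respiratory chain were higher in metformin livers, by small amounts, and most did not pass. In complex I, the enzyme that metformin inhibits, 5 of 28 tested subunits rose, none fell and 23 had a difference above 0, with a median of 0.19. In complexes II to V, 5 of 33 rose, none fell and 25 were above 0, with a median of 0.17. Beside these counts, 1.51% of all tested genes rose and 44.4% were above 0. Ndufb8 of complex I had the largest difference among the called subunits: 3953, 4100, 3250 and 3725 in MET against 2507, 2696, 2445 and 2621 in GLIP. The groups were well apart (0.54 ± 0.11, adjusted p = 0.00644). The other called subunits of complex I were Ndufc1, Ndufb5, Ndufb10 and Ndufa7, with differences from 0.27 to 0.41. In complexes III to V, Uqcr10, Uqcrb, Uqcrh, Cox7a2 and Atp5l differed by 0.31 to 0.37. Atp5l's second probe set, a dim one, pointed the other way (−0.18 ± 0.19, adjusted p = 0.64). Ndufb5 and Uqcrb were named after their values were seen, and their probe sets may take signal from related genes.

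Atp5mpl, a small protein of the ATP synthase outside the list, rose by 0.53 ± 0.13 (adjusted p = 0.0218). Idh2, the mitochondrial isocitrate dehydrogenase that makes NADPH, rose by 0.51 ± 0.13 (adjusted p = 0.0260). It was the 1 of 19 tricarboxylic acid cycle genes that passed, beside 1.51% of all tested genes that rose. MET 3 again gave the lowest MET values: the summed intensity of complexes II to V was 138479 there and 157293 to 158792 in the other MET arrays, beside 128273 to 143321 in GLIP. Only Ndufb8 and Uqcr10 of the 10 called subunits kept their calls with each array left out. The 5 calls in complex I became 3 under quantile normalization or without MET 1 or GLIP 1, and 1 without MET 2, MET 4, GLIP 3 or GLIP 4 or in either smaller fit. In complexes II to V the 5 became 3 under quantile normalization and 1 without MET 4. They became 2 without MET 1, MET 2, GLIP 3, GLIP 4 or the arrays MET 3 and GLIP 3 together. In either smaller limma fit 0 remained, and 13 (MET and GLIP alone) and 12 (with GM and CON) had an unadjusted p under 0.05. The share of all probe sets at that level in these fits was not computed.

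Of 10 tested gluconeogenic genes, 2 rose and none fell, 8 had a difference above 0, and the median was 0.18. Across all tested genes, 1.51% rose and 44.4% were above 0. Fbp1, the fructose bisphosphatase that commits carbon to glucose, measured 18740, 18730, 17160 and 18230 in MET and 15570, 15880, 15820 and 14880 in GLIP. The ranges were separate but the difference small, 0.23 ± 0.06 (adjusted p = 0.0291). Pgk1, which serves both directions of the pathway, rose by 0.40 ± 0.11 (adjusted p = 0.0403). Pck1, the cytosolic PEP carboxykinase, was 2421, 3043, 5161 and 3728 in MET and 3571, 4139, 3106 and 3516 in GLIP. The means were 3588 and 3583, with a difference of −0.05 ± 0.14 (adjusted p = 0.902) that took either sign as arrays were left out or scaled to equal medians. G6pc, the glucose-6-phosphatase, was at 4694 ± 1040 and 2945 ± 742 (0.68 ± 0.26, adjusted p = 0.142).

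Pdk1, a kinase that shuts off pyruvate dehydrogenase, rose with 2056, 1568, 1151 and 1658 in MET and 986, 1041, 834 and 865 in GLIP (0.75 ± 0.15, adjusted p = 0.00741). Of 17 genes of glycolysis and glycogen, Pdk1 and Pgk1 were the 2 called. In fatty acid oxidation, 2 of 33 rose and 1 fell, beside 1.51% and 2.31% of all tested genes. Cpt1a, which admits fatty acids to mitochondria, and Hadh, a dehydrogenase of beta-oxidation, were higher by 0.38 ± 0.11 (adjusted p = 0.0457) and 0.34 ± 0.09 (adjusted p = 0.0325). Cat, the peroxisomal catalase, fell by 0.37 ± 0.10 (adjusted p = 0.0392), with a dimmer probe set at 0.03. Cyp4a10, a fatty acid hydroxylase under PPAR alpha, was at 5409 ± 1280 and 6442 ± 1740, not called (adjusted p = 0.45). The calls of Fbp1, Pgk1, Cpt1a, Hadh and Cat each held in 2 or 3 of the 8 fits with an array left out. The adjusted p reached 0.187, for Cpt1a without GLIP 4, and the call of Pdk1 held in all 8. Fbp1 (limma adjusted p = 0.383), Pgk1, Cpt1a and Hadh also lost their calls under quantile normalization, and Cpt1a and Cat under equal medians. Each of these calls, that of Pdk1 included, was lost in the limma fit to MET and GLIP alone.

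None of 29 tested genes of AMPK and insulin signalling passed in limma and 4 had an unadjusted p under 0.05, beside 3.82% and 19.1% of all tested probe sets, and the list's median was −0.01. Irs2, the insulin receptor substrate that rises in fasting, was at 110, 238, 66.0 and 71.0 in MET and 327, 253, 104 and 105 in GLIP. The groups overlapped (−0.59 ± 0.40, adjusted p = 0.446), and CON was at 23.9 to 68.1, overlapping MET. Neither drug group's difference from CON was called (adjusted p = 0.179 for MET and 0.162 for GLIP). Igf1, the liver-made growth factor, was at 8098 ± 307 and 7046 ± 871 (0.21 ± 0.12, adjusted p = 0.37). Tsc2, an AMPK substrate that restrains mTOR, gave 0.32 ± 0.12 (adjusted p = 0.125). Transcript levels do not measure phosphorylation, through which AMPK acts.

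Chaperones and folding enzymes of the endoplasmic reticulum formed the largest called group, lower with metformin than with glipizide. Of 28 tested, 9 fell and none rose, where 2.31% of all genes fell. The 9 were Pdia3, Manf, Creld2, Dnajb9, Pdia4, Hspa5, Dnajb11, Dnajc3 and Xbp1. The MET and GLIP arrays did not overlap in any of the 9, where they did not in 111 of the 128 called falls over all genes. Of the 28 in all, 10 did not overlap, beside 9.37% of all tested probe sets. Promoters of 8 of the 9 were in the RefSeq table used (build GRCm38.p6), with Manf the exception. The 250 bases before the start of 4 of these genes are shown because many chaperone genes carry the ER stress element there, the letters CCAAT and CCACG separated by 9 bases, to which NF-Y and ATF6 bind. In the first 3, capitals mark that pair, which in Creld2 lies on the opposite strand (as CGTGG and ATTGG). In Pdia3, the gene with the largest fall of the group, capitals mark its CCAAT letters, since the pair was not found there. The sequences are those of chr2:34771840-34772089 (Hspa5), chr15:88819396-88819645 (Creld2), chr14:118937682-118937931 (Dnajc3) and chr2:121413652-121413901 (Pdia3), all on the plus strand.
Hspa5: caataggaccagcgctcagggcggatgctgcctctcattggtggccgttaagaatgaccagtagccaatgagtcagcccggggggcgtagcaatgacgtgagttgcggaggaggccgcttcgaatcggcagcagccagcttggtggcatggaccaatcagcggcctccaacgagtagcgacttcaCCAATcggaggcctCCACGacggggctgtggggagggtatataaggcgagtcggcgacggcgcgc
Creld2: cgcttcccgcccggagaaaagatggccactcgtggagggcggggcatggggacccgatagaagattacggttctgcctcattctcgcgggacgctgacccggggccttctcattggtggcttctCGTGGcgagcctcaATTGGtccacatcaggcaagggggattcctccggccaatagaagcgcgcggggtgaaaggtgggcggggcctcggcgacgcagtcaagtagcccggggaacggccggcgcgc
Dnajc3: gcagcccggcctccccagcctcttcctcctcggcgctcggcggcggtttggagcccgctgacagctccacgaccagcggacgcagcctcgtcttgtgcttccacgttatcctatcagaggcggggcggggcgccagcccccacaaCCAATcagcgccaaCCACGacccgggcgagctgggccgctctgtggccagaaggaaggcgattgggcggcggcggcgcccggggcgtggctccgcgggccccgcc
Pdia3: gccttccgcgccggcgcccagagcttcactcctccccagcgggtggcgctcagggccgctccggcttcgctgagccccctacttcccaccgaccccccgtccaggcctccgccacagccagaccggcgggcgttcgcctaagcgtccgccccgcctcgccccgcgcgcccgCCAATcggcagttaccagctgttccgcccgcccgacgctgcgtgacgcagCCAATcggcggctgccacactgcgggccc

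The pair, searched on both strands, was found in 3 of the 8 promoters and in 0.113% of all 32851 promoters of that length. Among the tested members of the list that were not called, it was found in 3 of 17. CCAAT alone was found in 7 of the 8 and in 33.8% of all. This search for the pair was added after the data were seen. Of the other motifs searched on both strands, TCACNCCAC (in 1.05% of all promoters), AGGTCANAG (1.75%) and GAAANNGAA (7.13%) were in none of the 8, and CACGTG (6.02%) was in that of Dnajb9. A match of letters is a description of these windows and shows no binding.

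Hspa5, the chaperone BiP that also holds the stress sensors inactive, measured 4243, 3730, 4412 and 3714 in MET and 7621, 6057, 6903 and 9392 in GLIP. The MET arrays lay in a narrow band, and the lowest GLIP array was well above them. The difference was −0.88 ± 0.15 (adjusted p = 0.00137), a ratio of 1.84. Pdia3, the disulfide isomerase ERp57 that folds glycoproteins, measured 1071, 1002, 946 and 787 in MET and 2102, 2070, 2375 and 2394 in GLIP. It differed most of the group, with −1.21 ± 0.20 (adjusted p = 0.00118). The related isomerase Pdia4 measured 1632, 1461, 894 and 1178 in MET and 2442, 2011, 2047 and 2979 in GLIP (−0.88 ± 0.21, adjusted p = 0.0171).

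Secreted and co-chaperone members followed the same order. Manf, a secreted factor of the stressed reticulum, was at 1112 ± 213 in MET and 2507 ± 759 in GLIP (−1.13 ± 0.20, adjusted p = 0.00197). Creld2, whose promoter is shown above, measured 255, 235, 367 and 277 in MET and 772, 423, 526 and 983 in GLIP (−1.13 ± 0.22, adjusted p = 0.0051). The 3 called co-chaperones of BiP of the DnaJ family were lower in MET, with differences of −0.95 ± 0.25 for Dnajb9, −0.86 ± 0.18 for Dnajb11 and −0.78 ± 0.15 for Dnajc3. Dnajc3 had 2 further probe sets at −0.66 each, whereas the dimmer probe set of Dnajb9 gave −0.08 ± 0.19. Xbp1, the transcription factor of the response and named after its value was seen, was just past the threshold at −0.59 ± 0.17 (adjusted p = 0.0494).

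Not all members passed the threshold. Hsp90b1, the chaperone GRP94, was lower in MET without overlap, at 5347 ± 525 and 6598 ± 785, but was not called (−0.30 ± 0.10, adjusted p = 0.0888). Atf4, a transcription factor of the arm run by the kinase PERK, was at 1208 ± 91 and 1278 ± 140 (−0.08 ± 0.11, adjusted p = 0.776). Ddit3 (CHOP), its proapoptotic target, gave −0.06 ± 0.51 (adjusted p = 0.967), with a sign that depended on single arrays. These 3 were picked after their values were seen.

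For most of the called chaperones, CON lay between the drug groups. Relative to CON, metformin mice were lower for 8 of the 9 genes, from −0.85 for Pdia3 to −0.32 for Xbp1, and Pdia4 was at 0.22. Glipizide mice were higher for all 9, from 0.26 for Xbp1 to 1.10 for Pdia4. On their own, Pdia3 in MET (adjusted p = 0.0165) and Pdia4 in GLIP (adjusted p = 0.0174) were the 2 of these 18 values past the threshold. Another probe set of Dnajc3 also passed in GLIP against CON (0.90, limma adjusted p = 0.0382). GM mice, given both drugs, had means of 6575 for Hspa5, 674 for Creld2 and 2030 for Pdia4, beside 7493, 676 and 2370 in GLIP. For Dnajb11, Dnajc3 and Manf the GM means were 406, 1647 and 2074, beside 391, 1672 and 2507 in GLIP. Those of Pdia3, Dnajb9 and Xbp1, at 1721, 1385 and 2803, lay nearer to CON (1743, 1309 and 2625) than to GLIP (2235, 1534 and 3218). The summed intensity of the 28 genes was 37301 to 42162 in MET, 43261 to 46387 in CON, 46324 to 59469 in GLIP and 46926 to 61650 in GM. With each array left out, between 6 and 9 members stayed past the threshold. Without MET 3 and GLIP 3 together 5 did, and in the fit to MET and GLIP alone 3 did.

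**Figure D4:**
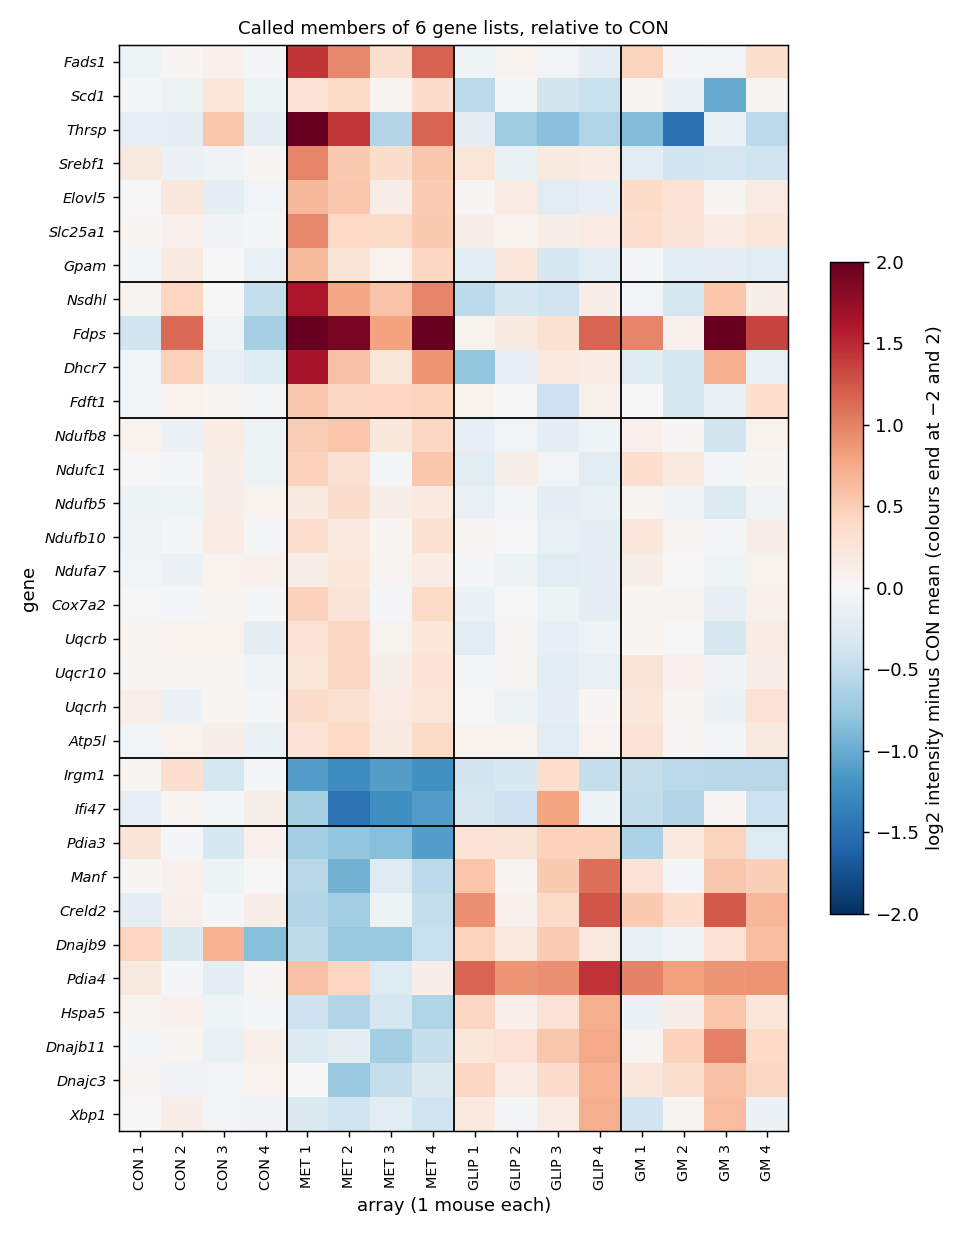
Log2 intensity minus the CON mean (colour, red above and blue below, ending at −2 and 2) for the 32 called members of 6 lists (rows) in the CON, MET, GLIP and GM arrays (columns); black lines divide lipogenesis, cholesterol synthesis, the 2 respiratory lists, interferon-induced genes and chaperones. The MET columns are mostly red in the upper blocks, where MET 3 is the palest, and mostly blue in the lower ones, and the GLIP and GM columns are mostly red for the chaperones.

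Other chaperones and the proteasome shifted less. Of 28 cytosolic and mitochondrial heat shock proteins 1 fell, Cct2 of the chaperonin that folds actin and tubulin (−0.57 ± 0.17, adjusted p = 0.0489), beside a list median of −0.14. Of 29 proteasome subunits 2 fell, Psmb4 (−0.46 ± 0.10, adjusted p = 0.0143) and Psmc5 (−0.27 ± 0.07, adjusted p = 0.0260), with a median of −0.18. Of 26 ribosomal proteins 1 rose, Rpl41 (0.37 ± 0.10, adjusted p = 0.0355), and their median was 0.01. Beside these counts, 2.31% of all tested genes fell and 1.51% rose. The probe sets of Psmb4 and Rpl41 may take signal from related genes.

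Interferon-induced genes had the lowest list median, yet only 2 of 22 fell past the threshold and none rose, beside 2.31% and 1.51% of all tested genes. Irgm1, an immunity-related GTPase that guards against intracellular pathogens, measured 225, 203, 226 and 209 in MET and 392, 412, 664 and 365 in GLIP. MET values lay within a narrow band below all GLIP values (−0.96 ± 0.17, adjusted p = 0.00165). Ifi47, of the same family, measured 270, 142, 174 and 189 in MET and 347, 326, 785 and 411 in GLIP (−1.11 ± 0.28, adjusted p = 0.0262). GLIP 3, the array with high macrophage markers, was the highest for both. Its summed intensity over the 22 genes was 48354, against 34445 to 36215 in the other GLIP arrays, 28692 to 36570 in MET and 33822 to 49315 in CON. Without GLIP 3 the difference of Irgm1 was −0.78 with its call kept, and that of Ifi47 was −0.84 with an adjusted p of 0.123.

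Igtp and Iigp1, further GTPases of the family, were just outside the threshold at −1.0 ± 0.30 (adjusted p = 0.0527) and −0.59 ± 0.18 (adjusted p = 0.059), without overlap. GLIP 3 was again the highest array for Igtp, at 1953 against 576 to 740 in the other GLIP arrays, and without it the difference was −0.60 (adjusted p = 0.241). A second probe set of Iigp1 passed (−0.62, adjusted p = 0.0369). Ifit1, an antiviral protein induced by type I interferon, was at 127 ± 76 in MET, 165 ± 55 in GLIP and 447 ± 118 in CON (−0.49 ± 0.34 between the drugs, adjusted p = 0.463). Irgm1 was at 525 ± 106 in CON, so that MET minus CON was −1.17 ± 0.17 (adjusted p = 0.000494) and GLIP minus CON −0.21 ± 0.17 (adjusted p = 0.778). None of 15 genes of antigen processing passed in limma, with 1 at an unadjusted p under 0.05, beside 3.82% and 19.1% of all tested probe sets. The count of 2 became 4 with the stricter filter on dim probe sets and 3 without MET 1, GLIP 1 or GLIP 2. It was 1 without MET 2, MET 3, MET 4, GLIP 3, GLIP 4 or MET 3 and GLIP 3 together. In the limma fit to MET and GLIP alone it was 0, and 9 had an unadjusted p under 0.05. The share of all probe sets at that level in that fit was not computed.

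**Figure D5:**
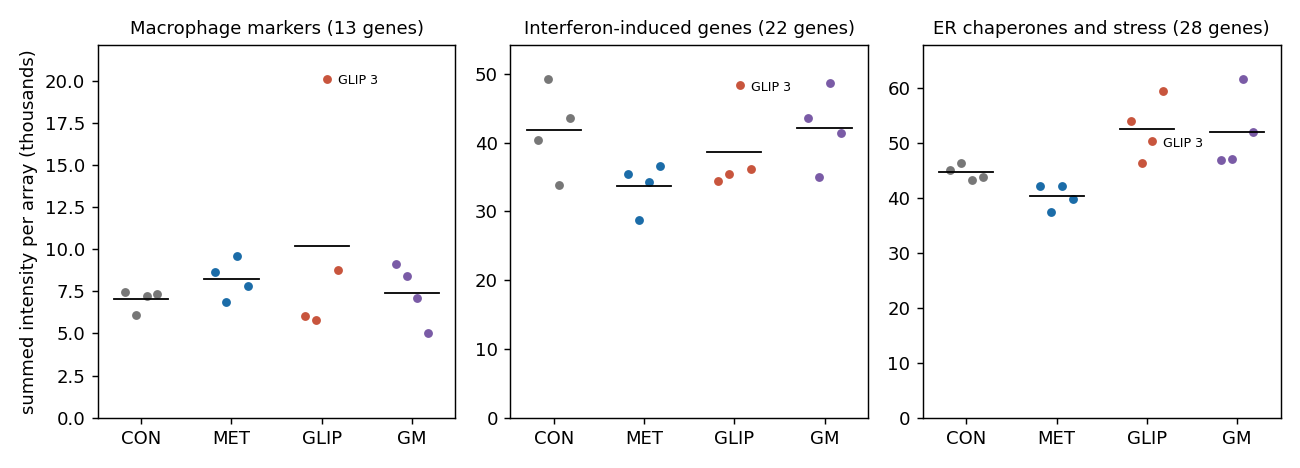
Summed intensity per array (y axes, in units of 1000; points are single mice, bars are means of 4) of 13 macrophage markers, 22 interferon-induced genes and 28 chaperone genes in CON, MET, GLIP and GM. GLIP 3 reaches 20129 for the macrophage markers, and the 4 MET arrays lie below the 4 GLIP arrays for the chaperones.

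The largest difference among the called genes was in the acute phase group. Saa3, a serum amyloid A made in inflammation by macrophages and other cells, measured 136, 83.5, 301 and 61.2 in MET and 517, 614, 536 and 720 in GLIP. No array overlapped, and the difference of −2.03 ± 0.35 (adjusted p = 0.00165) is a ratio of 4.10 on this scale. CON was between, at 230 ± 34, and GM was at 583 ± 145. The highest GLIP array was GLIP 4, and GLIP 3 was at 536. Of 46 genes of the acute phase, complement and coagulation, 2 fell and 1 rose, beside 2.31% and 1.51% of all tested genes. The median of the 46 was −0.14. Fgb, the fibrinogen beta chain, was the other that fell, 5404 ± 821 against 8109 ± 253 (−0.59 ± 0.15, adjusted p = 0.0242). Fgg, the gamma chain, was at 7648 ± 380 and 10610 ± 2040 with an adjusted p of 0.0701. Itih2, an inhibitor heavy chain that binds hyaluronan, rose by 0.25 ± 0.07 (adjusted p = 0.0392). Saa3 kept its call under every alternative run, while Fgb lost it in 4 of 8 fits with an array left out (adjusted p up to 0.0717 without MET 2).

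Drug-metabolising enzymes differed in a few members. Of 29 genes of cytochromes P450 and the xenobiotic response, 2 rose and none fell, beside 1.51% and 2.31% of all tested genes. Cyp2b10, the classical target of the receptor CAR, measured 1000, 874, 671 and 993 in MET and 487, 414, 482 and 363 in GLIP (0.97 ± 0.24, adjusted p = 0.0225). CON was at 780 ± 290 and GM at 408 ± 88. Cyp2c39, whose probe set may take signal from close relatives, rose by 0.39 ± 0.11 (adjusted p = 0.0442). Tpmt, which methylates thiopurine drugs, measured 2935, 2896, 2612 and 3148 in MET and 1734, 2101, 1729 and 1762 in GLIP. The difference was 0.66 ± 0.10 (adjusted p = 0.00075). GLIP lay at −0.55 ± 0.10 from CON (adjusted p = 0.0174) and MET at 0.10 ± 0.10 (adjusted p = 0.653). Mgst1, a microsomal glutathione transferase, fell (−0.38 ± 0.09, adjusted p = 0.0143), 1 of 23 conjugating enzymes. Of 25 antioxidant enzymes 3 fell, namely Cat, Gclm, which limits glutathione synthesis (−0.40 ± 0.08, adjusted p = 0.00739), and Txnrd1, thioredoxin reductase (−0.33 ± 0.09, adjusted p = 0.0283). Relative to CON, MET was at −0.46 for Cat (called), −0.09 for Gclm and −0.14 for Txnrd1. GLIP was at −0.09, 0.31 and 0.19 for the same genes, none called.

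Of the remaining genes with the largest separate rises, H2-Q10, a class I molecule of the major histocompatibility complex secreted by the liver, was the firmest. It measured 25250, 27000, 24460 and 27650 in MET and 18570, 18820, 15500 and 17840 in GLIP (0.56 ± 0.08, adjusted p = 0.000238), and its probe set may take signal from related class I genes. Mme, the peptidase neprilysin, measured 538, 410, 402 and 424 in MET and 179, 214, 181 and 200 in GLIP (1.09 ± 0.21, adjusted p = 0.00499). GM was lowest at 128 ± 49, and CON was at 363 ± 87. Upp2, which breaks down uridine, rose by 0.83 ± 0.19 (adjusted p = 0.0143). Slc7a2, a carrier of arginine and lysine, and Zwint, a kinetochore protein, rose by 0.57 ± 0.15 and 0.54 ± 0.09. For Upp2 and Slc7a2, MET minus CON was 0.12 and 0.08 and GLIP minus CON −0.71 and −0.49, with no call. For Zwint they were 0.32 (called) and −0.22 (not called). Zwint's probe set may take signal from related genes, and its other probe set gave 0.25 (adjusted p = 0.0369). Usp2, a deubiquitinase under circadian control, rose by 0.85 ± 0.21 (adjusted p = 0.0204). It was the 1 of 16 clock genes that passed, beside 1.51% of all tested genes that rose. Its values in GLIP 1 and GLIP 2, at 1087 and 1358, lay above those in GLIP 3 and GLIP 4, at 537 and 461. Usp2's dimmer probe set gave 0.64 ± 0.21 (adjusted p = 0.0889). The call of Usp2 was lost without MET 4, GLIP 3 or GLIP 4. Tdo2 and Qdpr, which serve tryptophan and phenylalanine breakdown, were the 2 of 39 amino acid genes that passed, beside the same 1.51%. They were at 0.37 ± 0.09 and 0.47 ± 0.10, with a dimmer probe set of Tdo2 at −0.23.

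Falls outside the lists above included regulators of cell death. Cflar, which blocks caspase 8, measured 187, 207, 156 and 193 in MET and 364, 373, 378 and 346 in GLIP. Every GLIP array stood above every MET array (−0.89 ± 0.23, adjusted p = 0.0272). CON was at 158 ± 17, and GLIP minus CON was 1.09 ± 0.23 (adjusted p = 0.0429). Pdcd4, which restrains translation, was at 1497 ± 62 in MET, 2115 ± 291 in GLIP and 2403 ± 279 in CON (−0.48 ± 0.10 between the drugs, adjusted p = 0.0109). Cflar and Pdcd4 were the 2 of 23 apoptosis genes called, beside 2.31% of all tested genes that fell. Egr1, an immediate early transcription factor, fell by 0.94 with overlapping arrays (adjusted p = 0.0409), the 1 of 18 immediate early genes called. Arf6, a GTPase of membrane traffic, was at 140 ± 24 and 293 ± 61 (−0.93 ± 0.18, adjusted p = 0.00529). Dhx36, a helicase of guanine-rich structures, Lap3, a leucine aminopeptidase, and Atxn7l1 were lower in MET (−0.90, −0.90 and −1.07). All were at dim group means of 437 or less. Relative to CON they were at −0.06, −1.15 (called) and −0.62 in MET. In GLIP they were at 0.84, −0.25 and 0.45, none called. Lap3's probe set was left out of the fit to single-transcript probe sets.

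Of the 72 called genes named here, 25 kept their calls with each of the 8 arrays left out in turn. Under every alternative run that tested them, 10 did, namely Abca1, H2-Q10, Hspa5, Mme, Ndufb8, Nsdhl, Pdia3, Saa3, Tpmt and Zwint. The probe sets of H2-Q10, Nsdhl and Zwint were left out of the fit to single-transcript probe sets. The number of arrays, 4 per drug, limits the precision of every value.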

How the data were processed

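The authors deposited 1 table of linear probe set intensities, which per the table itself had been scaled: the mean of each column without its top and bottom 2% was 500.4 to 500.5. The software, its background correction, detection calls, scan dates and batches are not given in the sources used here. Of 12488 probe sets, 66 control probe sets were left out of the tests. The platform annotation gave 1 gene symbol for 10833 of the other 12422, several for 396 and none for 1193, and genes were named only from the first kind.

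Tests used log2(intensity + 27), where 27 is the 20th percentile of the table, and this scale understates changes of dim genes. A probe set was tested if its mean log2 value corresponded to more than 94.2, the table's 40th percentile. The brightest tested probe set stands for its gene. Limma 3.58.1 in R 4.3.3 (lmFit and eBayes with an intensity trend) was fitted to all 8 groups of 4 arrays, with 24 residual degrees of freedom, and p-values were adjusted by Benjamini-Hochberg over the 7357 probe sets at a threshold of 0.05. The fit was tested on simulated data. Errors of log2 values are standard errors, those of intensities SDs over 4 arrays. No source says how the livers were processed beyond 1 array per mouse, so p-values measure the spread between these arrays. Array measures were compared by exact permutation (two-sided), where the smallest p possible with 4 against 4 is 0.0286.

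The members and gene lists were chosen with earlier results of these data known. Named genes are up to 15 of the largest rises and 15 of the largest falls among called genes without overlap, the 4 members of each list with the smallest p, and a set of metabolic genes. The text leaves some out and says where a gene was picked after its value was seen. Alternatives were other scalings, added values and filters, smaller fits, the replicate number as a block, no trend, 1 probe set per gene, single-transcript probe sets alone, and each array left out. The fit without MET 3 and GLIP 3 was added after the data were seen. Promoter sequences are RefSeq's, read from a table of 32851.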

Additional observations from a re-analysis of the deposited data

Results flagged for a closer look

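Within groups of 4 arrays, 222 sets of values were tested for an array far from the others (Dixon's criterion), and 12 met it. About 1 in 20 would by chance.

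GLIP 3 was low for Fdft1 (1156 against 1566 to 1651 in the other GLIP arrays), Atp5l (6480 against 7831 to 7892) and Cyp2c39 (3599 against 4949 to 5018), and high for the summed interferon-induced genes (48354 against 34445 to 36215). MET 3 was low for Hadh (6982 against 8744 to 9062) and for the summed respiratory complexes II to V (138479 against 157293 to 158792), and high for Rpl41 (33220 against 28640 to 29100). GLIP 2 was high for Cyp7a1 (1023 against 559 to 598) and Tpmt (2101 against 1729 to 1762). GLIP 1 was low for Arf6 (203 against 313 to 338), GLIP 4 high for Psmb4 (4731 against 4216 to 4278), and MET 1 low for Ddit3 (44.2 against 172 to 177).

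The control probe sets, which were left out of the comparison across probe sets, held a signal too. Of 34 control probe sets with a mean above the filter, the 3 for Gapdh, glyceraldehyde-3-phosphate dehydrogenase of glycolysis, were higher in every MET array than in any CON array. Only probe sets whose mean also exceeded that of CON by a set ratio were counted, and the 3 measure parts of the same transcript. Their MET means were 17300, 21600 and 19900 for the 3', 5' and middle parts, against at most 13800, 16900 and 14800 in CON and 13800, 16200 and 14600 in GLIP.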

How the results depend on the processing

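The 281 calls (117 higher, 164 lower) became 26 (10 and 16) in the fit to MET and GLIP alone, 104 (43 and 61) in the fit to MET, GLIP, GM and CON, 172 with 52 lower under equal medians, and 138 with 53 lower without the arrays MET 3 and GLIP 3 together. With each array left out in turn, totals ran from 89 to 307, higher calls from 44 to 119 and lower calls from 38 to 190. Over the same fits, list counts ran from 3 to 9 for lipogenesis, 1 to 6 for cholesterol synthesis, 1 to 6 for complex I, 1 to 6 for complexes II to V, 1 to 3 for interferon-induced genes and 6 to 9 for chaperones. In the fit to MET and GLIP alone these lists gave 0, 1, 1, 0, 0 and 3, and in the fit to 4 groups the first 4 gave 3, 1, 1 and 0. Quantile normalization gave 4 for lipogenesis and 3 for each respiratory list. The stricter filter gave 4 for interferon-induced genes. Without MET 3 and GLIP 3 together, complexes II to V gave 2, interferon-induced genes 1 and chaperones 5. The cause of these shifts was not tested beyond the fewer arrays or genes that some settings use.

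For the 93 genes named, 1491 of the alternative fits kept direction and side of the threshold, 409 lost and 20 gained a call, and 10 reversed sign, all of genes that were not called. Under equal medians Pck1 was at 0.011, and without MET 3 and GLIP 3 together Ddit3 was at 0.22. With each array left out, the differences ran from −0.0095 to 0.32 for Acly, from −0.72 to 0.0061 for Ifit1, from −0.24 to 0.12 for Pck1 and from −0.39 to 0.34 for Ddit3. Against CON, the 307 calls in MET ran from 105 to 337 and the 10 in GLIP from 1 to 13 over the alternatives.

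Replicate numbers did not pair the arrays: deviations of same-numbered MET and GLIP arrays correlated at −0.107, 0.02, −0.08 and −0.09, and none was the best partner of its number. With the replicate block the fit made 256 calls, 245 of them among the 281, and 5 of the 72 called genes named (Cct2, Cpt1a, Cyp2c39, Dhcr7 and Xbp1) lost their call.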
